A study of Mus musculus with 2 samples.

Results

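The genes described here are the Eph receptors and ephrins, the netrins with their receptors and draxin, and the Slits with their Robo receptors, measured in mouse embryonic forebrain. A fixed list of 41 symbols defined the set, 24 of them receptors and 17 ligands. All 41 were found among 43346 mouse genes in the deposited tables, 40 by gene identifier and Ntn3 through its transcript identifier. The study holds 2 libraries of 1 group: total RNA longer than 200 bases from forebrain of B6NCrl embryos at day 13.5, with male and female embryos pooled and 10 ng of RNA used per library. No genotype or treatment was named in the labels. Both libraries are called biological replicates but carry the same donor code, so the spread between them may be partly technical. With n = 2 and no second group, no test was made. Values are TPM, a level per transcript scaled by its length and by the library total, given for replicate 1 and then replicate 2 or as mean ± SD (n = 2).

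Eph receptors are receptor tyrosine kinases that bind ephrins held on the surface of a neighbouring cell. EphA receptors mainly bind ephrin-A ligands, which are anchored by a lipid, EphB receptors mainly bind transmembrane ephrin-B ligands, and both sides can signal. Netrins attract growth cones through Dcc and repel them through Unc5 receptors, while Slits repel through Robo receptors. In the developing forebrain these systems are known for sorting thalamocortical and corticofugal axons, placing commissures and guiding migrating neurons.

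The libraries held 35378462 and 36793284 expected counts. Forebrain markers were present (7 of 7 at 1 TPM or more in both libraries, summed level 608 and 621 TPM), and all 6 caudal neural tube markers stayed below 10 expected counts. Neuron markers summed to 2080 and 1978 TPM, and progenitor markers to 1163 and 1116 TPM. Endothelial markers summed to 100.4 and 106.5 TPM, mural and mesenchymal markers to 148.7 and 157.6 TPM, microglial markers to 31.2 and 31.6 TPM and erythroid markers to 11848 and 11140 TPM. In bulk tissue, fewer cells of a type and less RNA per cell cannot be told apart.

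Most of the guidance genes were detected, over a wide range of levels. A level of 1 TPM or more in both libraries was reached by 37 of 41 genes, beside 59.0% of 21475 protein-coding genes. At 10 TPM the count was 19 of 41 (background 38.9%), and at 50 TPM it was 6 of 41 (background 14.8%). Their median was 9.73 TPM, against 3.92 TPM over all protein-coding genes and 20.1 TPM over those at 1 TPM or more in both libraries. The 6 genes at 50 TPM or more were Epha3, Epha4, Epha5, Efnb1, Efnb3 and Robo2, and the 4 that missed 1 TPM in a library were Epha1, Epha2, Epha8 and Epha10. Ranked by mean TPM among all protein-coding genes, the set ran from percentile 29.0 for Epha1 to 92.0 for Epha5, with Robo2 at 85.6, Dcc at 76.9 and Slit2 at 68.1.

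**Figure D1:**
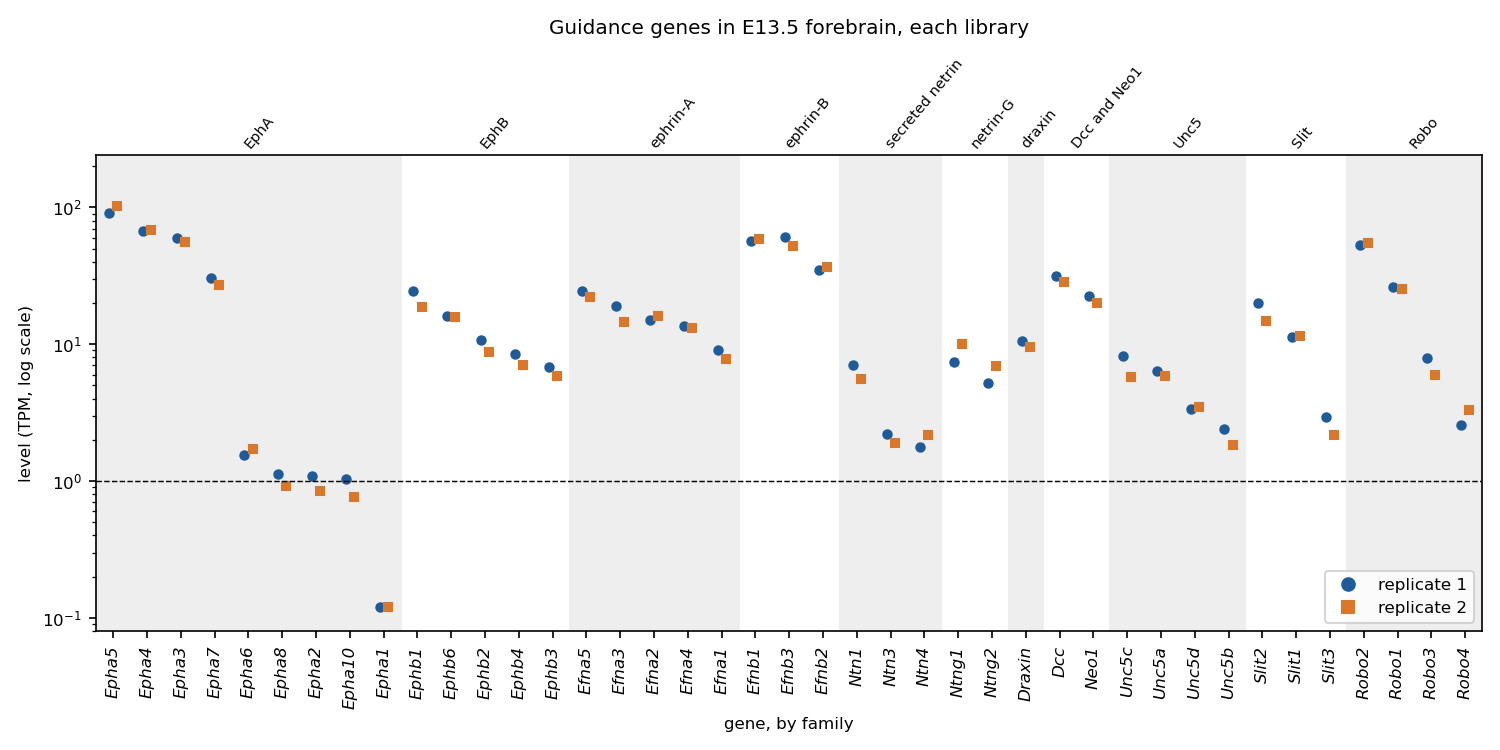
Level of each guidance gene in TPM on a log axis, grouped by family and ordered by mean within it; circles are replicate 1, squares replicate 2 and the dashed line is 1 TPM. EphA receptors cover the widest range, from 0.12 TPM for Epha1 to over 90 TPM for Epha5 in both libraries.

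The EphA receptors split into 4 abundant and 5 scarce genes. Epha5, a receptor of ephrin-A5 in forebrain axon mapping, was highest, at 91.1 and 102.8 TPM (96.9 ± 8.29). Epha4, which binds both ephrin classes, measured 67.2 and 67.8 TPM (67.5 ± 0.460), and Epha3 measured 59.6 and 55.7 TPM (57.7 ± 2.74). Epha7, a receptor with known truncated forms, followed at 30.2 and 26.9 TPM (28.6 ± 2.37). The ranges of these 4 genes did not overlap in TPM. Epha5 (minus strand, chr5:84054761-84417382) made up 36.0% and 39.9% of the family's summed TPM. The expected counts were much closer for the leading 3, with means of 7158 for Epha5, 7546 for Epha4 and 7438 for Epha3.

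The remaining EphA genes lay near or under 1 TPM. Epha6 measured 1.54 and 1.71 TPM, Epha8 measured 1.12 and 0.92 TPM, Epha2, best known from epithelia, 1.09 and 0.84 TPM, and Epha10, whose kinase domain is inactive, 1.03 and 0.77 TPM. Epha8, Epha2 and Epha10 could not be ordered, because neighbouring ranges overlapped. With protein-coding transcripts alone Epha6 measured 0.64 and 0.40 TPM, below Epha8. Epha1 was lowest at 0.12 TPM in both libraries, from 8.51 and 9.15 expected counts. It shares 236 exon bases with Zyx on the other strand, which had 1753 and 1751 counts, and the sources used here do not say if reads were counted by strand.

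The order of the leading EphA genes depended on which transcript models were summed. Epha5-207, a 3-exon model annotated as a retained intron, held 56.5% and 61.7% of the TPM of Epha5. With transcripts annotated protein-coding alone, Epha5 measured 34.4 and 35.6 TPM, below Epha3 at 59.6 and 55.7 TPM and Epha4 at 42.6 and 52.9 TPM. Epha3 has 1 listed transcript, which is coding, against 7 for Epha4 and 10 for Epha5. The restriction could therefore not lower Epha3, and its place in this order cannot be read as a difference in coding RNA. For Epha4, a nonsense-mediated decay model (Epha4-207) held 26.7% and 16.4%. In Epha7, the full-length coding model Epha7-201 held 28.3% and 30.4%, and Epha7-202, whose coding sequence has 1830 bases in place of 2994, held 19.4% and 15.8%. Between those 2 coding models the longer took 62.6% ± 4.55 of the TPM. Their deposited lengths differ by 3866 bases, so sequence outside the coding part enters this share. The largest share of Epha7 went to Epha7-208, a processed transcript with no annotated coding sequence, at 35.1% and 33.3%.

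Over all transcripts, the EphB receptors lay between the abundant and the scarce EphA genes. With protein-coding transcripts alone Epha7 measured 15.7 and 13.5 TPM. That was below Ephb1 at 24.29 and 18.66 TPM and Ephb6 at 16.1 and 15.8 TPM. Ephb1, which guides retinal axons at the optic chiasm, led with 24.3 and 18.7 TPM (21.5 ± 3.98). Ephb6, whose kinase is inactive, measured 16.1 and 15.8 TPM, and Ephb2, a receptor in commissure formation, 10.7 and 8.77 TPM. Ephb4, a marker of venous endothelium, measured 8.47 and 7.09 TPM, and Ephb3 measured 6.84 and 5.89 TPM. Each gene's range lay above that of the next, but with protein-coding transcripts alone Ephb2 measured 8.04 and 6.55 TPM and overlapped Ephb4. In Ephb6, a 459-base model annotated protein-coding, with 34.5 and 35.3 counts, held 26.7% and 25.6% of the TPM. Without that model Ephb6 measured 11.82 and 11.76 TPM, below the protein-coding level of Epha7.

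A pair of EphB genes showed coding variants that differ by a short in-frame stretch, printed here to show what separates them. Capitals mark the bases present in one transcript and absent from the other, with 15 neighbouring transcript bases on each side in lower case. For Ephb4, the lower-case bases after the capitals belong to the same exon. They were cut from GENCODE M21 transcripts (GRCm38, the same assembly as mm10). The Ephb1 exon of 123 bases (41 codons), which encodes the juxtamembrane stretch and the start of the kinase domain, lies on the minus strand at chr9:101984082-101984204. The Ephb4 stretch of 27 bases (9 codons) is the 5′ end of an exon on the plus strand at chr5:137362363-137362389.
Ephb1 exon in Ephb1-201: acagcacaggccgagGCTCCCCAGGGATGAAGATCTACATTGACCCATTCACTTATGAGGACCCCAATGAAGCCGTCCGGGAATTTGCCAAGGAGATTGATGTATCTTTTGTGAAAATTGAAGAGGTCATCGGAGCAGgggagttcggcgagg
Ephb4 extension in Ephb4-203: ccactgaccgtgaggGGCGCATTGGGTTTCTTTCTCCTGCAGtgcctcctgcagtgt
Ephb1-201, which has the exon, held 81.2% and 80.3% of the TPM of Ephb1, and Ephb1-202, which skips it, 11.7% and 14.1%. Within that pair the exon-containing transcript took 86.2% ± 1.65, and their deposited lengths differ by 566 bases, so sequence outside the exon enters as well. Ephb4-203, which has the extension, took 16.7% ± 7.71 of its pair with Ephb4-201, at 22.2% and 11.3%. Its share thus differed about as much between libraries as its size in replicate 2. The deposited lengths are 4296 bases for Ephb4-203 and 4340 for Ephb4-201, so sequence outside the extension enters here too.

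The ephrin-A ligands lay within a narrow band. Efna5, the ligand of cortical and thalamic mapping, was highest at 24.5 and 22.3 TPM (23.4 ± 1.58). Efna3 measured 18.9 and 14.6 TPM, Efna2 14.9 and 15.98 TPM, Efna4 13.7 and 13.2 TPM, and Efna1, known in vessels, 9.12 and 7.83 TPM. Efna3 and Efna2 overlapped, and the other neighbours did not. Efna3 and Efna4 share 344 and 168 exon bases with antisense RNAs that were themselves at 0.5 TPM or less.

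The ephrin-B ligands were the most abundant ligands of the set. Efnb1, an X-linked gene (plus strand, chrX:99136130-99148991), measured 56.8 and 58.9 TPM (57.8 ± 1.53), and Efnb3, a midline barrier ligand, 60.5 and 51.8 TPM (56.1 ± 6.14), and their ranges overlapped. Efnb2, found on arterial endothelium and in neural progenitors, was lower at 34.6 and 36.9 TPM (35.8 ± 1.62). One coding transcript of each gene held at least 90% of its TPM in both libraries.

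Ligand and receptor sums differed in opposite directions for the A and B classes. Summed ephrin-A was 3.30-fold below summed EphA (81.1 and 73.9 against 253 and 258 TPM, log2 ratio -1.72 ± 0.114). Summed ephrin-B was 2.45-fold above summed EphB (151.9 and 147.6 against 66.4 and 56.2 TPM, log2 ratio 1.29 ± 0.141). EphA exceeded EphB 4.18-fold (log2 ratio 2.06 ± 0.189). The 5 scarce genes put the median EphA member at only 1.63 TPM, so with medians over members in place of sums the A-class ratio turned to 2.59 and EphA over EphB turned to -2.03. With protein-coding transcripts alone the summed ratios were -1.05 and 1.45.

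**Figure D2:**
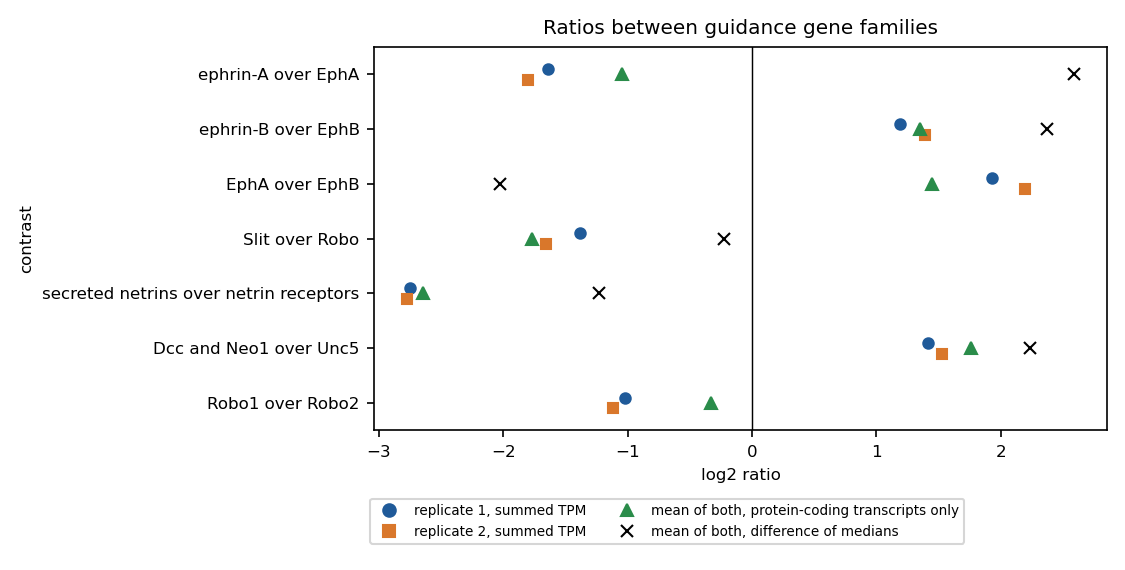
Log2 ratios of summed TPM between families in each library (circles replicate 1, squares replicate 2), with the mean ratio over protein-coding transcripts alone (triangles) and the difference of median log2(TPM + 1) over members (crosses, not defined for Robo1 over Robo2). The crosses lie on the other side of 0 for ephrin-A over EphA and for EphA over EphB.

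The secreted netrins were scarce relative to their receptors. Ntn1, the main attractant of commissural axons, measured 7.10 and 5.54 TPM (6.32 ± 1.10). Ntn3 measured 2.20 and 1.91 TPM and Ntn4, a basement membrane netrin, 1.78 and 2.18 TPM, and those ranges overlapped. Draxin, a secreted repellent that binds Dcc, measured 10.5 and 9.57 TPM (10.0 ± 0.636), above Ntn1 in both libraries. The span of Draxin overlaps that of Mad2l2 on the other strand (89.96 and 79.6 TPM), but the annotated exons share 0 bases.

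Dcc and Neo1 exceeded the Unc5 receptors. Dcc measured 31.6 and 28.7 TPM (30.1 ± 2.05) and its relative Neo1, also a receptor of repulsive guidance molecules, 22.5 and 20.1 TPM (21.3 ± 1.70). Among the Unc5 receptors, Unc5c measured 8.20 and 5.74 TPM, Unc5a 6.34 and 5.88 TPM, Unc5d, a cortical migration receptor, 3.38 and 3.46 TPM, and Unc5b, found on endothelium, 2.38 and 1.82 TPM. Unc5c and Unc5a overlapped. Summed Dcc and Neo1 exceeded summed Unc5 2.77-fold (54.1 and 48.8 against 20.3 and 16.9 TPM, log2 ratio 1.47 ± 0.0815). The 3 secreted netrins together were 6.76-fold below the 6 receptors (log2 ratio -2.76 ± 0.0160). With medians over members that log2 ratio was -1.23, and the ratio of Dcc and Neo1 over Unc5 was 2.24.

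Dcc, a gene spanning 1097436 bases, was read mostly as its longer form. Dcc-202 and Dcc-201 differ by 60 bases (20 codons) at one exon edge within the coding sequence. The longer Dcc-202 held 67.4% and 65.7% of the TPM of Dcc, and the shorter Dcc-201 held 27.3% and 29.3%. Within the pair the longer form took 70.2% ± 1.42. The deposited lengths of the pair differ by 364 bases, so their annotated ends differ as well and enter the estimate. Dcc-202 has a deposited length of 5219 bases but 10323 in GENCODE M21. The 60-base difference is therefore as the later annotation gives it. Dcc-203, a retained intron model, held 5.29% and 4.99%.

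Unc5a was read mostly without 1 of its exons. The exon has 168 bases (56 codons), encodes a thrombospondin type 1 domain of the receptor's outer part, and lies on the plus strand at chr13:54997193-54997360.
Unc5a exon in Unc5a-201: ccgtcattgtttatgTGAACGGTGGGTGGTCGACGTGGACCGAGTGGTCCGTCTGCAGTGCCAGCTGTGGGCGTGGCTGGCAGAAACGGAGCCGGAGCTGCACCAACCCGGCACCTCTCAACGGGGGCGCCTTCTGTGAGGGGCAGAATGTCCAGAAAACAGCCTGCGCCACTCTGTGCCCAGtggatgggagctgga
Unc5a-202, which skips it, held 80.1% and 93.0% of the TPM, and Unc5a-201, which has it, 15.3% and 6.97%. Within the pair the exon-containing transcript took 11.5% ± 6.43. The deposited lengths of these 2 transcripts differ by exactly 168 bases, so the exon alone accounts for their difference in length. Its share was low in both libraries but not close between them, from 84.1 and 38.8 counts.

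**Figure D3:**
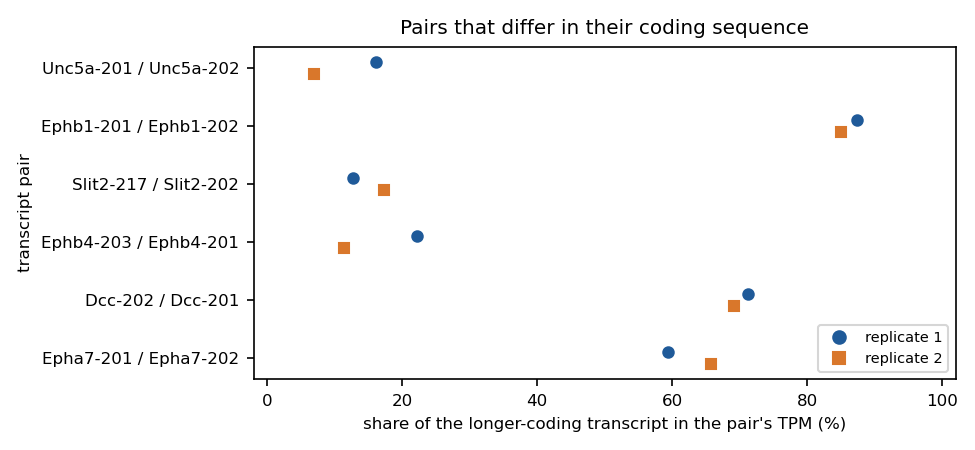
Share of the transcript with the longer coding sequence in the summed TPM of each pair, in percent, for replicate 1 (circles) and replicate 2 (squares). The longer Dcc form lies at 71.2% and 69.2%, and the Unc5a exon is at 16.1% and 6.97%.

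The netrin-G genes encode lipid-anchored relatives of the netrins that bind Lrrc4c and Lrrc4 rather than Dcc or Unc5. Ntng1, known from thalamic axons, measured 7.35 and 10.0 TPM (8.68 ± 1.88), and Ntng2 5.24 and 6.90 TPM (6.07 ± 1.17). Both were higher in replicate 2, and over all transcripts their ranges did not overlap. The level of Ntng1 rested in part on Ntng1-201, a 327-base model with 18.6 and 24.1 counts that held 49.8% and 43.4% of the TPM. With transcripts of at least 1000 bases alone, Ntng1 measured 3.69 and 5.67 TPM and Ntng2 3.94 and 5.20 TPM, which overlapped. Ntng2 measured 2.92 and 3.79 TPM with protein-coding transcripts alone. Their partner Lrrc4c measured 12.4 and 9.17 TPM and Lrrc4 3.20 and 3.54 TPM.

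Among the Slits, Slit2 (plus strand, chr5:47983138-48307733) was highest at 20.1 and 14.8 TPM (17.4 ± 3.76), followed by Slit1 at 11.3 and 11.4 TPM (11.4 ± 0.0636). Slit3 was lowest at 2.96 and 2.17 TPM (2.57 ± 0.559). The ranges did not overlap, but the order of Slit2 and Slit1 depended on the transcripts summed. Slit2-207, a retained intron model, held 40.0% and 35.2% of the TPM of Slit2. With protein-coding transcripts alone, Slit2 measured 7.91 and 5.94 TPM, below Slit1 at 11.1 and 11.1 TPM, and Slit3 measured 1.03 and 0.89 TPM.

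The coding transcripts of Slit2 differ by a 27-base exon (9 codons) on the plus strand at chr5:48263641-48263667, a microexon inside the coding sequence.
Slit2 exon in Slit2-217: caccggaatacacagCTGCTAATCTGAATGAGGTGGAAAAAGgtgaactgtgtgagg
Slit2-202, without it, held 34.1% and 33.2% of the TPM, and Slit2-217, with it, 4.97% and 6.97%. Within the pair the exon-containing transcript took 12.7% and 17.3%. In the deposited tables Slit2-217 has 5139 bases and Slit2-202 has 6854, so sequence well outside the exon enters this estimate. The deposited lengths of both Slit2 transcripts differ from those of GENCODE M21, so the exon is as the later annotation gives it. In Slit1, Slit1-203 and Slit1-201, which differ by 219 coding bases, held 48.5% and 41.9%, and 44.2% and 55.1%, and the leading one changed between libraries.

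Robo2 was the most abundant Robo receptor over all transcripts, at 52.9 and 54.8 TPM (53.8 ± 1.36). Robo1, which acts with Robo2 in Slit repulsion, measured 26.1 and 25.2 TPM (25.7 ± 0.643). Robo3, known for commissural crossing, measured 7.87 and 5.91 TPM, and Robo4, an endothelial receptor, 2.57 and 3.29 TPM (2.93 ± 0.509). No ranges overlapped over all transcripts. With protein-coding transcripts alone Robo3 measured 4.65 and 2.53 TPM and overlapped Robo4 at 2.57 and 3.28 TPM. Robo2 (minus strand, chr16:73891839-74411825) held 59.1% and 61.4% of the family's summed TPM. Robo1 was 2.10-fold below Robo2 (log2 ratio -1.07 ± 0.0727), and Slits together were 2.86-fold below Robos (34.4 and 28.4 against 89.4 and 89.2 TPM, log2 ratio -1.52 ± 0.194). With medians over members the Slit ratio was -0.23.

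The transcript models behind the Robo levels differed in kind. Robo1 has 1 listed transcript, Robo1-201. Robo2-209, a 2-exon retained intron model, held 33.2% and 34.5% of the TPM of Robo2, ahead of the coding models Robo2-202 at 22.0% and 21.5% and Robo2-203 at 14.9% and 14.0%. With protein-coding transcripts alone Robo2 measured 32.4 and 32.1 TPM, and the log2 ratio of Robo1 to Robo2 was -0.33. Part of that coding level came from the short models Robo2-205 (519 bases, 5.76 and 5.23 TPM) and Robo2-204 (535 bases, 3.88 and 4.53 TPM). They had 53.74 and 53.25 counts, and 37.6 and 47.9 counts. Without them the coding models of Robo2 sum to less than Robo1 at 26.1 and 25.2 TPM. In Robo3, the coding model Robo3-202 held 59.1% and 42.8%, and the retained intron models Robo3-206 and Robo3-203 held 18.9% and 29.4%, and 18.3% and 19.5%. Robo4 was assigned to Robo4-203 alone in replicate 1 (100%), and in replicate 2 to Robo4-201 (54.9%) and Robo4-203 (45.1%), from 215 and 292 counts in all. The 100% depended on the estimate used. By the posterior mean percent, Robo4-203 held 60.1% and 34.2%, and Robo4-201 held 17.9% and 52.9%.

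Transcript models not annotated protein-coding held part of the level in some of these genes. Shares were read for the 37 genes whose expected count averaged 100 or more. In 10 of 37, at least 10% of the TPM in both libraries came from such models, beside 33.0% of 11968 protein-coding genes with that count. Of the 37, 11 have only 1 listed transcript, which is coding, so they could not be among the 10. The matching number for the background is not given here. Such a model led in both libraries in 4 of 37, namely Epha5, Epha7, Slit2 and Robo2, beside a background of 6.54%. All 4 span at least 100000 bases, as do 19 of the 37, beside 16.2% of all genes with that count. Among all genes of that span, such a model led in 9.82%. The median span was 106527 bases, against 26430.5 over all protein-coding genes with that count. In 32 of the 37 genes the leading transcript was the same in both libraries, beside 94.0% of all genes with that count, and the 5 exceptions were Ntng1, Unc5c, Slit1, Slit3 and Robo4.

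**Figure D4:**
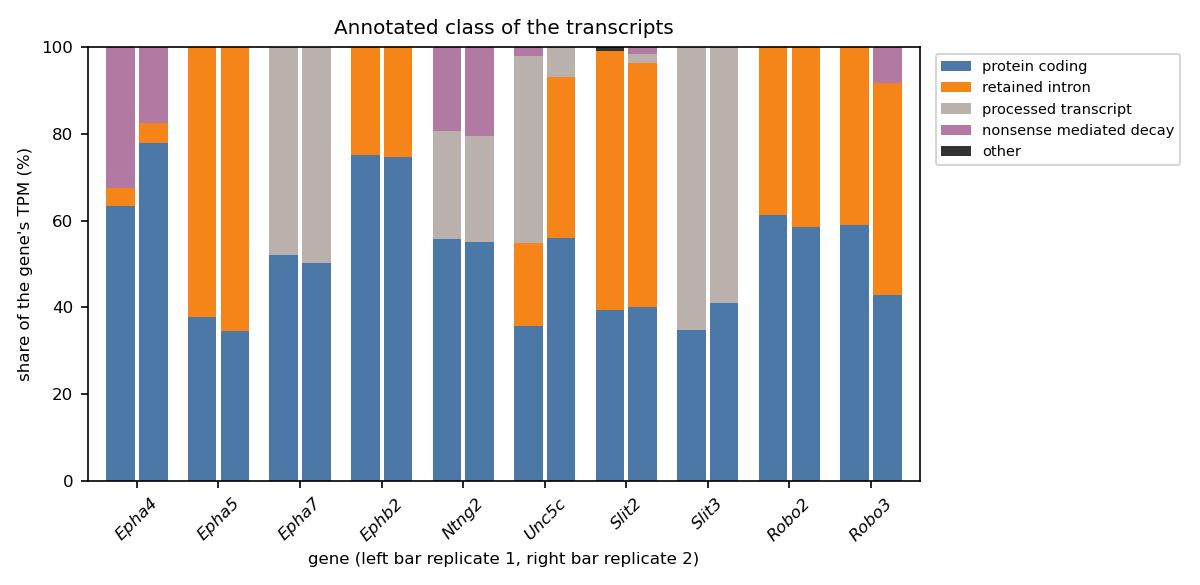
Share of each gene's TPM by the annotated class of its transcripts, in percent, for the 10 genes with at least 10% from models other than protein-coding in both libraries (left bar replicate 1, right bar replicate 2). Epha5, Slit2 and Slit3 have less than 42% in protein-coding models, and the bars of Unc5c differ most between libraries.

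Few guidance genes differed between the libraries, at counts near the background. Of the 37 genes that averaged 100 or more expected counts, 0 were at least 1.5-fold lower in replicate 2 on the TPM + 1 scale (background 1.09%) and 0 were at least 1.5-fold higher (background 0.226%). Their median absolute log2 ratio was 0.16, against 0.13 over all protein-coding genes. The median signed ratio was -0.13, beside -0.10 over all, and with counts scaled by edgeR's TMM factors both were within 0.01 of 0. Relative to the median of all genes, 20 of 37 were lower.

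Ntng1 was the 1 gene that passed 1.5-fold when counts were scaled by library, with 405 and 686 counts and a log2 ratio of 0.76. On that scale 0.602% of all 11968 genes were at least 1.5-fold higher in replicate 2 and 1.19% at least 1.5-fold lower, so 1 of 37 is a small count to read. Ntng2 was next at 0.53, from 155.6 and 225.6 counts, and it shares 558 exon bases with 6530402F18Rik on the same strand. On the TPM + 1 scale neither netrin-G gene passed 1.5-fold, with log2 ratios of 0.40 for Ntng1 and 0.34 for Ntng2. On that scale 2 of the 3 thalamus markers were at least 1.5-fold higher in replicate 2. These were Tcf7l2 at 107.8 and 173.7 TPM and Gbx2 at 15.9 and 24.4 TPM. Lhx9 measured 27.2 and 28.5 TPM, and the 3 markers summed to 150.8 and 226.5 TPM. Their part in the netrin-G result was not tested. Slit2 was lower in replicate 2, from 1868 and 1476 counts, but by less than 1.5-fold. Its log2 ratio was -0.34 from TMM-scaled counts and -0.42 on the TPM + 1 scale. All 4 choroid plexus markers with enough counts were lower in replicate 2. On the TPM + 1 scale 3 of them were at least 1.5-fold lower, and Clic6, at 4.75 and 2.93 TPM, was not. The list summed to 445.2 and 228.9 TPM, and the part of these markers in the Slit2 result was not tested. Robo4 was higher in replicate 2, with a log2 ratio of 0.44 from TMM-scaled counts and 0.27 on the TPM + 1 scale. The endothelial list summed to 100.4 and 106.5 TPM, with a median log2 ratio of 0.03 on the TPM + 1 scale. Its part in the Robo4 result was not tested.

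Unc5c changed direction with the scale. Its TPM was 8.20 and 5.74 while its counts were 696 and 759, giving log2 ratios of -0.45 and 0.12. Unc5c-206, a 357-base processed transcript, held 43.2% of the TPM from 20.3 counts in replicate 1 and 6.96% from 2.50 counts in replicate 2. The coding model Unc5c-202 was nearly level, at 2.93 and 3.03 TPM. With protein-coding transcripts alone Unc5c measured 2.93 and 3.22 TPM, below Unc5a.

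**Figure D5:**
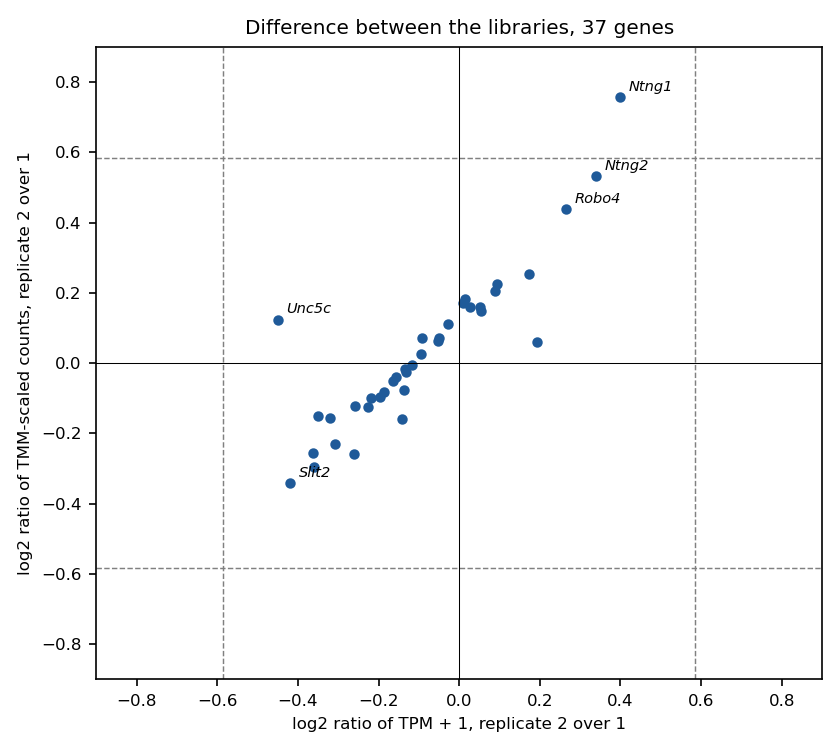
Log2 ratio of replicate 2 over replicate 1 for the 37 guidance genes with enough counts, on the TPM + 1 scale (x axis) and from TMM-scaled counts (y axis), with dashed lines at 1.5-fold. Ntng1 alone lies past 1.5-fold, on the y axis, at 0.76, and Unc5c lies away from the other genes at -0.45 and 0.12.

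Genes that act with these receptors were read from 3 lists. The background for 1 TPM or more in both libraries was 59.0% of 21475 protein-coding genes. Of the Eph partners, 14 of 14 reached 1 TPM in both libraries, with a median of 28.1 TPM. The highest were Sdcbp, an ephrin-B scaffold, at 234.4 and 223.0 TPM, Pick1 at 63.2 and 56.5 TPM and the ephrin-cleaving protease Adam10 at 51.8 and 49.9 TPM. Vav2 at 7.33 and 7.22 TPM, Vav3 at 5.32 and 8.06 TPM and Ngef at 4.58 and 2.52 TPM, which are exchange factors downstream of Eph receptors, were lowest. On the TPM + 1 scale, Ngef was the 1 gene of the 3 lists at least 1.5-fold lower in replicate 2, and 0 were higher. Of 11968 protein-coding genes, 1.09% were lower and 0.226% higher by that measure.

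All 17 Slit and Robo partners reached 1 TPM in both libraries, with a median of 26.1 TPM. Nell2, a Robo3 ligand, was highest at 126.3 and 102.2 TPM, above each of the 3 Slits. The heparan sulphate carrier Gpc1 measured 98.5 and 94.1 TPM and the actin regulator Evl 67.2 and 60.5 TPM. The lowest were the heparan sulphate enzymes Ext1 at 8.80 and 6.53 TPM and Hs6st1 at 4.50 and 4.30 TPM, with the kinase Abl2 at 5.46 and 4.77 TPM.

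All 18 netrin and draxin partners also reached 1 TPM, with a median of 14.1 TPM. The small GTPases Cdc42 at 572.4 and 549.5 TPM and Rac1 at 205.7 and 206.7 TPM were highest, followed by Pitpna at 58.3 and 57.7 TPM. The exchange factor Trio at 5.98 and 5.54 TPM, the netrin-G partner Lrrc4 at 3.20 and 3.54 TPM and the netrin receptor Dscam at 2.23 and 2.06 TPM were lowest. Dscam was below Dcc and Neo1 in both libraries.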

How the data were processed

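Total RNA sequencing of 2 forebrain libraries was read from the deposited gene and transcript tables, made on mm10 with GENCODE M4 per the file headers and notes. The authors deposited expected counts per gene and transcript, TPM (with a posterior mean version), the percent of a gene's TPM held by each transcript, and lengths. The sources used here do not name the aligner, the quantifier or the strand setting. Symbols, coordinates, exons and transcript classes came from GENCODE M21 (GRCm38) by identifier without version, so a class or exon may differ from that of M4. Some short transcripts have high TPM from few counts.

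Members, lists and tests were chosen with earlier results of these data known. Each member was named with its level. Of partners, the 3 highest and lowest per list were named, and for Robo genes and Dcc the leading transcript and others at 10% or more in both libraries. Other transcripts and the printed exons were chosen after their values were seen. Families were compared as log2 ratios of summed TPM within each library. The library difference was log2 of TPM + 1, replicate 2 over replicate 1, called past 1.5-fold where expected counts averaged 100 or more. Neighbours in level were called apart where the ranges over both libraries did not overlap. Counts were rounded for TMM (edgeR 4.0.16) and size factors (DESeq2 1.42.0), with 0.5 added before logs. With 2 libraries only the range and SD describe precision. Alternatives were the posterior mean TPM, other thresholds, pseudocounts and scalings, medians, and each library alone. Summing only protein-coding transcripts, or only those of at least 1000 bases, was added after seeing the data. The ratio functions were tested on simulated counts.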

Additional observations from a re-analysis of the deposited data

How the results depend on the processing

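The number of genes at 1 TPM or more in both libraries ran from 33 to 40 over the thresholds of 2 and 0.5 TPM, and was 38 with the posterior mean TPM. With medians over members, the log2 ratio reversed for ephrin-A over EphA (2.59) and EphA over EphB (-2.03), and moved to 2.37 for ephrin-B over EphB, -0.23 for Slit over Robo, -1.23 for secreted netrins over their receptors and 2.24 for Dcc and Neo1 over Unc5. Medians give each member equal weight, unlike sums. With protein-coding transcripts only, the ratios were -1.05 for ephrin-A over EphA, 1.45 for EphA over EphB, -1.76 for Slit over Robo, -2.64 for netrins over receptors, 1.76 for Dcc and Neo1 over Unc5 and -0.33 for Robo1 over Robo2. With transcripts of at least 1000 bases only, they were -2.80 for netrins over receptors, 1.73 for Dcc and Neo1 over Unc5 and -0.78 for Robo1 over Robo2, and the posterior mean TPM gave 1.37 for Dcc and Neo1 over Unc5. Either library alone kept the sign of all 7 ratios. The level moved by over 1.5 times in 9 of 41 genes with protein-coding transcripts only, in 3 with transcripts of at least 1000 bases and in 0 with the posterior mean. No share over all genes is given beside these counts or those at 2 and 0.5 TPM, so they describe the listed genes only. With TMM or size factor scaling of counts, 1 gene (Ntng1) was at least 1.5-fold higher in replicate 2 (0.602% of all genes with TMM), and the median log2 ratio was -0.0064 and -0.0049. No paired analysis was possible because there is 1 group. The 2 libraries limit every statement on spread.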

Other observations

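Some of the guidance genes lie on the same chromosome within a short or moderate distance (GRCm38, GENCODE M21). Robo3 and Robo4 are convergent neighbours on chromosome 9, with 553 bases between their ends, and measured 6.89 ± 1.39 and 2.93 ± 0.509 TPM (SD, n = 2), but with protein-coding transcripts alone 4.65 and 2.53 against 2.57 and 3.28 TPM, which overlapped. Robo1 and Robo2 lie 845743 bases apart on chromosome 16. Efna1, Efna3 and Efna4 lie on chromosome 3, with gaps of 32756 and 10424 bases, and measured 8.48 ± 0.912, 16.8 ± 3.03 and 13.4 ± 0.375 TPM (SD, n = 2). Epha8 and Ephb2 lie 93430 bases apart on chromosome 4 at 1.02 ± 0.141 and 9.73 ± 1.36 TPM.

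Some guidance genes share exon bases with another annotated gene. Ephb1 shares 152 exon bases with the long noncoding RNA Gm26846 on the other strand, which measured 1.29 and 1.42 TPM. Unc5c shares 118 with the antisense RNA Gm15688, at 0.45 and 0.60 TPM. Ntn3 shares 89 with Tbc1d24 on the same strand, at 7.88 and 6.40 TPM, above Ntn3 itself.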
